A study of Saccharomyces cerevisiae with 25 samples.

Results

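The wildtype *Saccharomyces cerevisiae* strains YFA1131 and YFA1130, each the reference for edited strains in this experiment, were compared with each other for transcript levels. Both carried the BY (S288C laboratory background) allele at every locus that the study edited, so that the contrast measures what differs between 2 wildtype isolates with different editing histories. It used the 5 libraries labelled as an *rgt2* KanMX replacement returned to the BY allele (YFA1131) and the 5 labelled as an *FAA4*-GFP fusion returned to BY (YFA1130), 10 of the 25 libraries of the series. The other 15 libraries were 5 each of the edited strains *RGT2(V539I)*, *OAF1(L63S)* and *OLE1(FAR)*, which carried the allele of the wine strain RM at 1 variant each. They entered the statistical fit and were otherwise used only to place the wild types.

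All 5 strains were haploid *MATa* cells with the deletions *his3Δ1*, *leu2Δ0*, *met15Δ0* and *ura3Δ0*, and each strain was 1 clone. Each had passed through a strain that carried a GFP tag (a fluorescent protein) on *FAA4*, which encodes a long-chain acyl-CoA synthetase. YFA1130 was the strain in which Cas9 cutting had exchanged the tagged gene for the untagged BY gene. The same untagged parent then had *RGT2*, the gene for a glucose sensor of the plasma membrane, replaced by the KanMX drug resistance cassette. From this deletion strain came both YFA1131, in which the BY *RGT2* allele was put back, and *RGT2(V539I)*. YFA1131 was therefore 2 gene exchanges further from the common parent than YFA1130. Each strain gave 5 libraries from separate cultures in minimal medium with 2% glucose, histidine, leucine, methionine and uracil.

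Lineages that carry the same designed alleles can still come to differ, through mutations that arise as cells divide or during transformation, through chromatin states and gene copy number near chromosome ends, or through small differences between cultures. Many metabolic genes of yeast respond to the level of a pathway intermediate. Several genes of pyrimidine synthesis are induced by the activator Ppr1 when the intermediates dihydroorotate and orotate build up, and a *ura3* cell cannot carry the pathway through to UMP, so that it lives on the uracil of the medium. In branched-chain amino acid synthesis the activator Leu3 responds to the leucine precursor α-isopropylmalate.

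The 10 wildtype libraries held between 10127168 and 12458887 estimated counts, and all 25 between 9216531 and 14644996. Cultures had been harvested in 3 batches. Batch 1 held YFA1131 replicates 1 and 3 and YFA1130 replicate 3, batch 2 held YFA1131 replicate 4 and YFA1130 replicate 2, and batch 3 held YFA1131 replicates 2 and 5 and YFA1130 replicates 1, 4 and 5. The strains thus did not fall equally over the harvests. *LEU2*, *URA3* and *MET17* were listed at 0 counts in all 25 libraries, and *HIS3*, of which the *his3Δ1* allele keeps a part, at 827 to 1529 counts in the wild types. CPM are counts per 1e6 counts of the library, after TMM scaling except for the a-cell and alpha-cell genes named next, which were not scaled. Of the a-cell genes, *STE2* lay between 1074 and 1318 CPM, *STE6* between 469 and 574, *BAR1* between 355 and 503 and *AGA2* between 56.9 and 92.1. The a-factor genes *MFA1* and *MFA2* were listed at 0 in every library, although the strains are *MATa*. The alpha-cell genes *MF(ALPHA)1*, *MF(ALPHA)2* and *STE3* did not exceed 5.30 CPM, and *SAG1* lay between 35.8 and 44.0. Among the edited strains 2 libraries went against their labels. The library labelled *OAF1(L63S)* replicate 2 had 47.6 CPM of *IZH4* where the other 4 had 2.63 to 3.67, and the library labelled *OLE1(FAR)* replicate 3 had 2.43 where the other 4 had 45.3 to 50.7. Neither is a wild type, but both entered the fit of all 25 libraries. The counts over all genes, the counts of some lists and the contrast among the edited strains are also given without them.

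The levels of the engineered loci themselves overlapped between the wild types. *FAA4* lay between 694 and 893 CPM in YFA1131 and between 662 and 828 in YFA1130, and the ranges overlapped. *RGT2* lay between 41.7 and 49.1 CPM in YFA1131 and between 37.4 and 50.0 in YFA1130, again overlapping. The log2 fold change of YFA1131 over YFA1130 was 0.01 ± 0.06 (SE) for *FAA4* and 0.07 ± 0.06 for *RGT2*. None of the 8 genes tested within 10 kb of *FAA4* and 1 of the 9 within 10 kb of *RGT2* reached an unadjusted p under 0.05. The latter was *SCM3*, which encodes the chaperone of the centromeric histone, at -0.31 ± 0.10. Its p was 0.318 after Benjamini-Hochberg adjustment over all genes of edgeR's quasi-likelihood p-values, from which every adjusted p below comes. Without the 2 libraries that went against their labels *FAA4* had 0.13 ± 0.04 (unadjusted p = 0.0079, adjusted p = 0.187). *RGT2* then had 0.09 ± 0.07 (adjusted p = 0.601).

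Most transcripts differed little between the wild types. Of 5713 genes with a count in every library, 7 passed a false discovery rate (FDR) of 10% (0.123%), 1 higher and 6 lower in YFA1131. At the lenient threshold, an unadjusted p under 0.05, 555 genes passed (9.71%), and YFA1131 was higher in 290 (5.08%) and lower in 265 (4.64%). The median log2 fold change over all genes was 0.0025, the median size of the change was 0.049 and the median standard error was 0.055. For 24 genes (0.42%) the 5 YFA1131 libraries did not overlap the 5 YFA1130 libraries, with YFA1131 below in 20 of them and above in 4. Without the 2 libraries that went against their labels, 84 of 5718 genes passed the FDR (1.47%), 46 higher and 38 lower, and 766 passed the lenient threshold (13.4%). All 7 genes of the full fit were among the 84. The number of calls at the FDR was 12 without the RNA isolation batch, the replicate block of this design, 1 with the 10 wildtype libraries alone and harvest batch as the covariate, and 0 when harvest batch 1 was left out, where 221 genes passed the lenient threshold. The share of the lenient calls that lay higher in YFA1131 also moved with the scaling and the tool, from 290 higher and 265 lower to 350 and 218 with DESeq2's size factors in edgeR and to 239 and 99 with DESeq2 itself.

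Of the 6 genes that fell in YFA1131, 3 belong to pyrimidine metabolism. *URA4* (YLR420W, chromosome XII) encodes dihydroorotase, *URA1* (YKL216W, chromosome XI) encodes dihydroorotate dehydrogenase, which acts directly after it, and *FUI1* (YBL042C, chromosome II) encodes the uridine permease. The sequence before each gene was searched for a motif. The letters CGGNNNNNNCCG, the core of the Ppr1 site, read the same on both strands and were found in the 500 bases before the start of the gene in 149 of 5486 promoters (2.72%). They occurred before *URA1* (at 2 places), *URA4* and *FUI1*, and also before *FCY1*, so that 4 of the 15 promoters of the pyrimidine list held them. Outside the list they occurred at 3 places before *MDH2*, the gene with the fourth smallest p of the comparison. The matches before genes that fell are shown 5′ to 3′ on the strand of the gene, from the RefSeq sequence of build R64, with the fixed letters of the motif in capitals.
URA1, distal: tcttcacCGGgctttgCCGaaggtta
URA1, proximal: cgatcttCGGcattcgCCGaaaattt
URA4: catcattCGGagaattCCGatgaatc
FUI1: tgatgctCGGgatttgCCGgtttcgt
MDH2, nearest: aatgatcCGGgaagttCCGgtttttt
The *URA1* stretches are at chrXI:24996-25021 and chrXI:25027-25052 and that of *URA4* is at chrXII:963648-963673, all on the plus strand. That of *FUI1* is at chrII:140593-140618 and that of *MDH2* at chrXV:83218-83243, both on the minus strand. Behind the 149 promoters with these letters, 14 genes were at the lenient threshold in each direction, and the median log2 fold change was 0.0019. Over all 5486 promoters, 253 genes were lower and 278 higher at that threshold. A match is a description of these letters and not a measured binding site.

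*URA1* (chrXI:25215-26159, plus strand) was at 242, 315, 206, 343 and 346 CPM in YFA1131 replicates 1 to 5. In YFA1130 replicates 1 to 5 it was at 400, 399, 348, 427 and 434 CPM. Every YFA1131 library was below every YFA1130 library, with the lowest values of both strains in harvest batch 1. The means were 290 ± 63 (SD, n = 5) and 402 ± 33.5 CPM. On the log2 scale YFA1131 differed from YFA1130 by -0.43 ± 0.06 (SE, adjusted p = 0.002). Within harvest batches 1, 2 and 3 the log2 ratio of the strain means was -0.64, -0.22 and -0.35.

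*URA4* (chrXII:963785-964879, plus strand) was at 147, 171, 144, 172 and 171 CPM in YFA1131 replicates 1 to 5 and at 195, 192, 182, 201 and 199 CPM in YFA1130. Again no YFA1131 library reached the lowest YFA1130 library. Its log2 fold change was -0.25 ± 0.03 (adjusted p = 0.002), with -0.33, -0.15 and -0.21 within the 3 harvest batches. *URA1* and *URA4* kept their sign in 24 of 24 alternative analyses and passed the FDR in 19 each, including all 10 that left out 1 wildtype library. The 5 in which they did not pass were the fits with fewer libraries or fewer covariates, among them the fit without harvest batch 1, where the log2 fold change was -0.29 for *URA1* and -0.20 for *URA4*.

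*FUI1* (chrII:138341-140260, minus strand) was at 66.2, 91.3, 76.2, 80.6 and 73.6 CPM in YFA1131 and at 105, 95.6, 94.7, 85.9 and 93.7 CPM in YFA1130. One YFA1131 library, replicate 2, lay above the lowest YFA1130 library, and the other 4 were below all 5. The fitted log2 fold change was -0.28 ± 0.05 (adjusted p = 0.0419). With 1 wildtype library left out it ran from -0.31 to -0.22, and the call was lost without YFA1131 replicate 1, 2 or 5 or YFA1130 replicate 3 or 5 (highest adjusted p 0.593).

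The rest of the pathway did not follow as one. Of the 15 pyrimidine genes tested, 6 lay lower at an unadjusted p under 0.05 and 0 lay higher, and 3 of the 6 passed the FDR. The other 3 were *URK1*, which encodes uridine kinase, *FUR4*, which encodes the uracil permease, and *URA10*, the minor orotate phosphoribosyltransferase, with log2 fold changes of -0.08, -0.11 and -0.17. Without the 2 libraries against their labels only the 3 that passed the FDR lay lower at the lenient threshold. *URK1*, *FUR4* and *URA10* then had -0.04, -0.05 and -0.17 and missed it. The count was also 3 lower with DESeq2 and with its size factors in edgeR. The remaining 9 genes lay between 0.00 and 0.11, with a lowest unadjusted p of 0.145. They included *URA2*, for the enzyme that opens the pathway, *URA5*, for the major orotate phosphoribosyltransferase, and *PPR1* itself (0.04 ± 0.04). The list median was 0.015, close to the 0.0025 of all genes, so that the difference was one of few members. Harvest batch 1 held the lowest pyrimidine list level among the YFA1130 libraries.

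**Figure D1:**
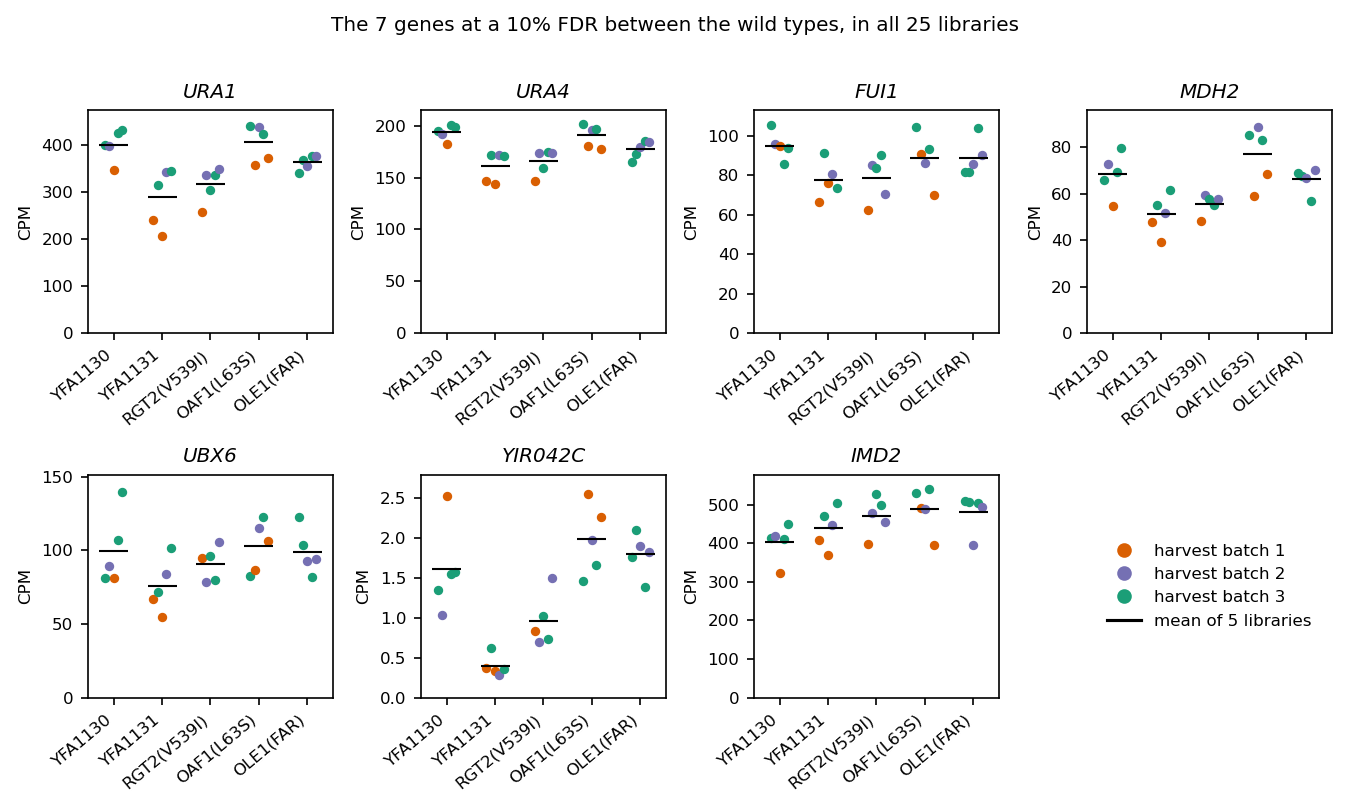
Levels of the 7 genes that passed the 10% FDR, in TMM-scaled CPM, in all 25 libraries. Each point is 1 library, its colour gives the harvest batch, and the bar is the mean of the strain. *URA1*, *URA4* and *YIR042C* were lower in every YFA1131 library than in every YFA1130 library, and the other 4 genes overlapped.

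Of the other genes that fell, *MDH2* (YOL126C, chrXV:81787-82920, minus strand) encodes the cytosolic malate dehydrogenase, an enzyme of gluconeogenesis that glucose represses. It was at 47.8, 55.4, 39.4, 51.7 and 61.6 CPM in YFA1131 and at 66.1, 72.8, 54.7, 69.5 and 79.9 CPM in YFA1130. The ranges overlapped, with the lowest libraries of both strains in harvest batch 1, and within each batch the strain mean was lower in YFA1131 (log2 ratios of -0.33, -0.49 and -0.30). This gave a log2 fold change of -0.33 ± 0.05 (adjusted p = 0.00337). *UBX6* (YJL048C, chrX:347447-348637, minus strand) encodes a UBX-domain protein of the Cdc48 system. It was at 67.0, 72.0, 54.5, 84.2 and 102 CPM in YFA1131 and at 81.3, 89.4, 81.0, 107 and 140 CPM in YFA1130. Again the ranges overlapped, with log2 ratios within batches of -0.42, -0.09 and -0.33. Its log2 fold change was -0.35 ± 0.06 (adjusted p = 0.0206). The call was lost without YFA1131 replicate 1 or YFA1130 replicate 3 or 5, where the adjusted p reached 0.223, and the log2 fold change with any 1 library left out stayed between -0.41 and -0.30.

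The gene with the largest fold change of the 7 was *YIR042C* (chrIX:435273-435983, minus strand), an uncharacterised reading frame close to the right end of chromosome IX. It was at 0.365, 0.618, 0.328, 0.284 and 0.358 CPM in YFA1131 and at 1.35, 1.03, 2.52, 1.54 and 1.58 CPM in YFA1130. The groups did not overlap. These levels rest on few reads, 3 to 7 counts per library and 22 in all in YFA1131 against 12 to 32 per library and 93 in all in YFA1130. The log2 fold change was -2.08 ± 0.29 (adjusted p = 0.002), and it was the 1 gene that passed the FDR when the 10 wildtype libraries were fitted alone with harvest batch.

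*IMD2* (YHR216W, chrVIII:554396-555967, plus strand), the 1 gene that rose in YFA1131, encodes an IMP dehydrogenase, the enzyme that commits IMP to guanine nucleotides. It was at 409, 470, 370, 448 and 504 CPM in YFA1131 and at 414, 419, 323, 412 and 450 CPM in YFA1130. The ranges overlapped widely, and the difference of 0.17 ± 0.03 on the log2 scale (adjusted p = 0.0426) appeared within batches, where the log2 ratios were 0.27, 0.10 and 0.20. Its estimated counts were not whole numbers in any of the 25 libraries, since it shares reads with near-identical family members, so its level is uncertain. Its call was also the least stable of the 7 and passed in 9 of 24 alternatives. Among the libraries left out singly it passed without YFA1131 replicate 2 or 5 or YFA1130 replicate 2 or 4 and was lost without any of the other 6, with a log2 fold change of 0.14 to 0.19 throughout.

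Each wild type was also set beside the mean of the 3 edited strains. For *YIR042C* the log2 difference from the edited mean was -2.07 for YFA1131 and 0.01 for YFA1130. The corresponding values were -0.26 and 0.07 for *MDH2* and -0.29 and 0.06 for *UBX6*, so that for these 3 genes the larger departure was that of YFA1131. For *IMD2* it was that of YFA1130, at -0.26 against -0.09. The pyrimidine genes lay on both sides, with -0.27 and 0.17 for *URA1*, -0.11 and 0.13 for *URA4* and -0.15 and 0.14 for *FUI1*. Both differences use the same edited libraries and are given side by side only. That mean includes *RGT2(V539I)*, which came from the same *rgt2* deletion strain as YFA1131. Its *URA1* and *YIR042C* levels were below those of *OAF1(L63S)* and *OLE1(FAR)*, so which wild type lies apart depends on this reference.

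The edited strains offer a second look, because *RGT2(V539I)* came from the same *rgt2* deletion strain as YFA1131 while *OAF1(L63S)* and *OLE1(FAR)* did not. This contrast holds no wildtype strain, but it is not independent of the first. It comes from the same fit, in which the wildtype libraries also set the batch terms, surrogate variables and spread. In *RGT2(V539I)* against the mean of *OAF1(L63S)* and *OLE1(FAR)*, 68 of the 5713 genes passed the FDR (1.19%). Of the 7 genes that passed between the wild types, 5 also passed there and 6 had the same sign. There the log2 fold change was -0.36 ± 0.04 for *MDH2* (adjusted p = 0.000119), -0.30 ± 0.05 for *URA1* (adjusted p = 0.00315) and -0.16 ± 0.03 for *URA4* (adjusted p = 0.00695). *UBX6* (-0.21, adjusted p = 0.0806) and *YIR042C* (-0.90, adjusted p = 0.0564) also fell, whereas *FUI1* (-0.16, adjusted p = 0.177) and *IMD2* (-0.06, adjusted p = 0.659) did not pass. Without the libraries against their labels 59 of 5718 genes passed in this contrast (1.03%), 50 of them among the 68. *MDH2*, *URA1*, *URA4* and *UBX6* passed there too, and *YIR042C* had -0.83 (adjusted p = 0.174). In mean CPM over all libraries, *URA1* was at 317 in *RGT2(V539I)*, 407 in *OAF1(L63S)* and 364 in *OLE1(FAR)*, and *YIR042C* at 0.954, 1.98 and 1.79. This second contrast also carries the RGT2 variant, and what the variant does and what the shared descent does cannot be told apart in it.

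Beyond the genes that passed the FDR, a few moderately expressed genes kept the 10 libraries apart. Among genes with a mean of at least 10 CPM and an unadjusted p under 0.05, 14 lay lower in YFA1131 without overlap and 2 higher. Over all 5713 genes tested 24 did not overlap (0.42%). The genes named here were picked for their p and their lack of overlap, and how many would lie apart by chance was not tested. Of the 10 with the largest log2 fold change below 0, *URA1* and *URA4* were 2 and the others were *CYB5* (cytochrome b5, an electron donor in lipid synthesis) with a log2 fold change of -0.33, *TIM9* (a chaperone of the mitochondrial intermembrane space, -0.31), *LCL2* (-0.29), *MRP35* (a mitochondrial ribosomal protein, -0.28), *DFG10* (polyprenol reductase of dolichol synthesis, -0.25), *ZIP1* (a meiotic synaptonemal complex protein, -0.23), *RIB4* (lumazine synthase of riboflavin synthesis, -0.22) and *FMC1* (an assembly factor of the mitochondrial ATP synthase, -0.19). Their adjusted p lay between 0.112 for *LCL2* and 0.472 for *FMC1*. *CYB5*, for example, was at 16.2 to 19.9 CPM in YFA1131 and at 21.6 to 23.9 CPM in YFA1130. The higher ones were *YDJ1*, an Hsp40 co-chaperone, at 490 to 541 CPM in YFA1131 and 461 to 488 in YFA1130 (0.13), and *COS8* of the subtelomeric COS family (0.37), whose reads are shared with its relatives and whose level is uncertain. Without the libraries that went against their labels, *YDJ1* rose (0.16, adjusted p = 0.0387) and *LCL2* (-0.32, adjusted p = 0.0539) and *RIB4* (-0.27, adjusted p = 0.0543) fell.

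Pathways were then read as lists, each by the number of its members at an unadjusted p under 0.05 and by its median, against 9.71% and 0.0025 for all genes. Of 65 lists, 21 had a share at or above 2 times that of all genes, and 25 lay below the share of all genes. No p was computed for a list, since members of a pathway are not independent of each other, and the counts are descriptions.

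**Figure D2:**
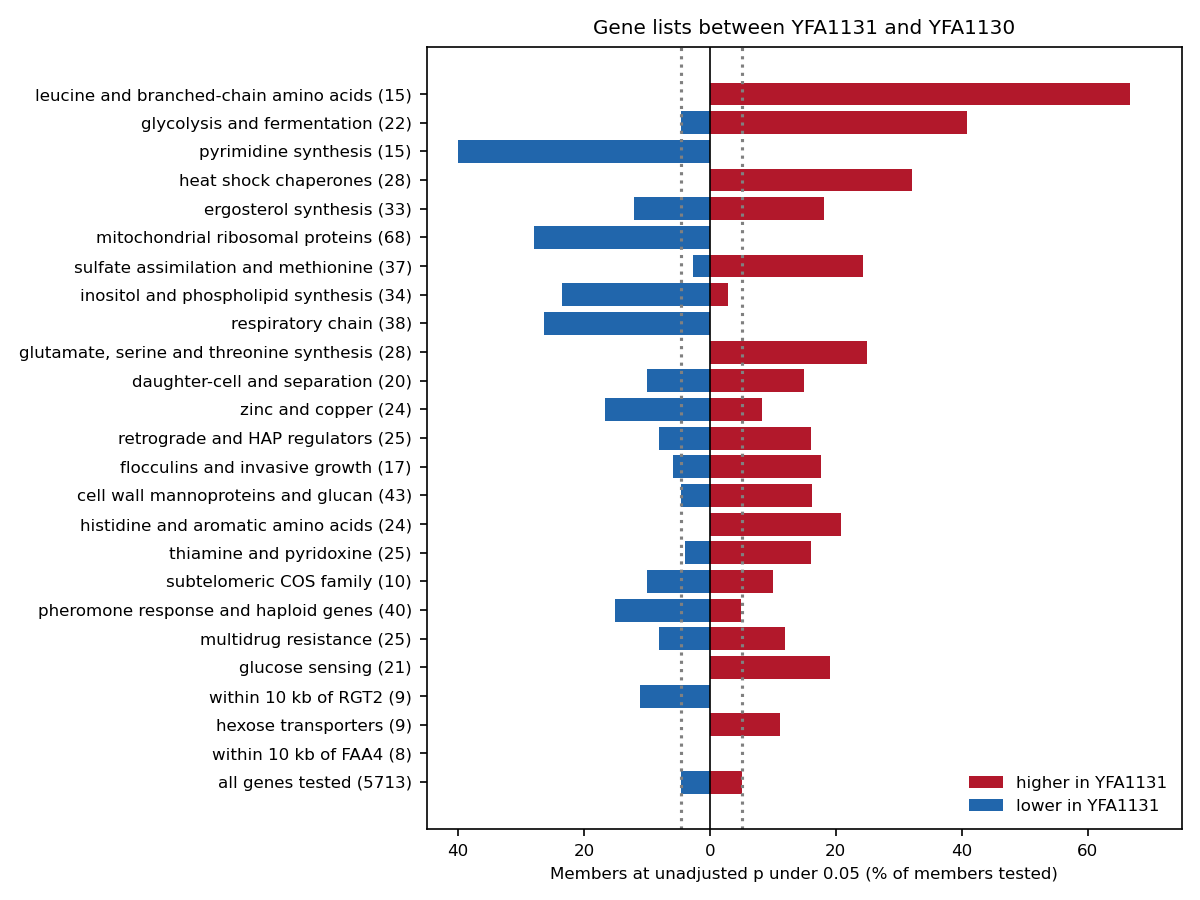
Share of the members of each described list with an unadjusted p under 0.05, in percent, drawn to the right for members higher in YFA1131 and to the left for members lower. The telomeric helicase genes and lists with fewer than 5 members tested are not drawn. The dotted lines mark the shares over all 5713 genes tested, 5.08% higher and 4.64% lower. Amino acid, glycolysis and chaperone lists reached to the right, and the mitochondrial ribosomal, respiratory chain and pyrimidine lists to the left.

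Genes of amino acid synthesis lay higher in YFA1131, among them those of the branched-chain pathway. All 15 leucine and branched-chain genes tested had a log2 fold change above 0, between 0.06 and 0.28, with a median of 0.14. Of them, 10 lay higher and 0 lower at the lenient threshold, and 0 passed the FDR. *ILV6*, the regulatory subunit of acetolactate synthase, lay higher by 0.24, *ILV2*, its catalytic subunit, by 0.15, and *ILV5*, the next enzyme, by 0.11. On the leucine branch *LEU9*, an α-isopropylmalate synthase, lay higher by 0.16 and *LEU1*, isopropylmalate isomerase, by 0.28. *OAC1*, the mitochondrial carrier that exports α-isopropylmalate, lay higher by 0.20 and the permease gene *BAP3* by 0.12. The letters CCGGNNCCGG, the core of the Leu3 site, were found in 15 of 5486 promoters (0.273%) and in 5 of the 15 of this list. Of the genes behind these 15 promoters, 5 lay higher and 0 lower at the lenient threshold, with a median log2 fold change of 0.10. Over all 5486 promoters the counts were 278 higher and 253 lower. *LEU1*, *ILV2*, *ILV5* and *BAP2* were among the 5 and are already counted in the list, so this is not a separate observation. The 5 sites of the list are shown as above, on the strand of each gene, with the fixed letters in capitals, since this list had the largest share of members at the lenient threshold of the lists described.
LEU1: gaaaattCCGGgaCCGGcgaaatt
ILV2: gagcctgCCGGtaCCGGcttggct
ILV5: gtctcctCCGGtaCCGGttctgcc
BAT1: gtgtttgCCGGtaCCGGcctttaa
BAP2: tgtgggaCCGGaaCCGGcatccac
They are at chrVII:478853-478876 (minus strand), chrXIII:483609-483632 (plus), chrXII:839614-839637 (minus), chrVIII:517378-517401 (plus) and chrII:376060-376083 (minus) of R64. In *ILV2* and *ILV5* the Leu3 letters overlap a CGGNNNNNNCCG match.

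*LEU1* shows how the harvests entered this result. It was at 1158 and 1314 CPM in the YFA1131 libraries of harvest batch 1 (replicates 1 and 3), and at 704, 903 and 692 in replicates 4, 2 and 5. In YFA1130 it was at 715 in the batch 1 library (replicate 3), and at 900, 759, 746 and 694 in replicates 2, 1, 4 and 5. The batch 1 libraries of YFA1131 stood far above the range of YFA1130, and the other 3 libraries ran over the same range as YFA1130. *ILV6* was at 563 and 566 CPM in the batch 1 libraries of YFA1131 against 481 in that of YFA1130, at 350 against 435 in batch 2, and at 566 and 404 against 451, 319 and 327 in batch 3. The list level, the mean of log2(CPM + 0.5) over the members, differed between the strains by 0.34 in batch 1, -0.14 in batch 2 and 0.09 in batch 3. Without harvest batch 1 the list median was -0.05 and 0 of 15 members passed the lenient threshold. With 1 library left out 2 to 14 members lay higher, with 2 without YFA1130 replicate 3, 3 without YFA1131 replicate 1 or YFA1130 replicate 5, 4 without YFA1131 replicate 3, 5 without YFA1130 replicate 1 and 6 without YFA1131 replicate 2.

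The other amino acid lists had smaller shares than the 10 of 15 (66.7%) of the branched-chain list. At the lenient threshold 7 of 28 genes of glutamate, serine and threonine synthesis lay higher (25.0%) and 5 of 24 of histidine and aromatic amino acid synthesis (20.8%), with 0 lower in both. In sulfate assimilation and methionine 9 of 37 lay higher and 1 lower (27.0%), and in arginine and lysine synthesis 4 of 28 higher and 0 lower (14.3%, against 9.71% of all genes). Over the 5 lists together, the 10 branched-chain genes included, 35 of 132 genes lay higher and 1 lower, with a median of 0.077. *GLY1*, threonine aldolase, lay higher by 0.23 (adjusted p = 0.107), *ARO1*, the pentafunctional enzyme of the shikimate pathway, by 0.19, *HIS4* of histidine synthesis by 0.20, *ASN1*, asparagine synthetase, by 0.15 and *SAM1*, S-adenosylmethionine synthetase, by 0.16. Reads of *ASN1* and *SAM1* are shared with their paralogs in at least 22 of 25 libraries, so these are uncertain. Without the 2 libraries against their labels, 63 of the 132 lay higher at the lenient threshold and 2 lower, and 14 rose and 0 fell at the FDR. The 14 included *ASN1* (0.23, adjusted p = 0.0148), *ILV6* (0.29, adjusted p = 0.0336) and *SAM1* (0.25, adjusted p = 0.0386), with the mitochondrial branched-chain aminotransferase gene *BAT1* (0.22, adjusted p = 0.0729) and *GLY1* (0.24, adjusted p = 0.0781) among them. Members of the arginine and lysine list were also among the 14, including the gene of arginase, which breaks arginine down. Without harvest batch 1, 4 of the 132 lay higher and 1 lower, and the median was -0.0054. In that first harvest 2 YFA1131 libraries stood against 1 YFA1130 library.

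**Figure D3:**
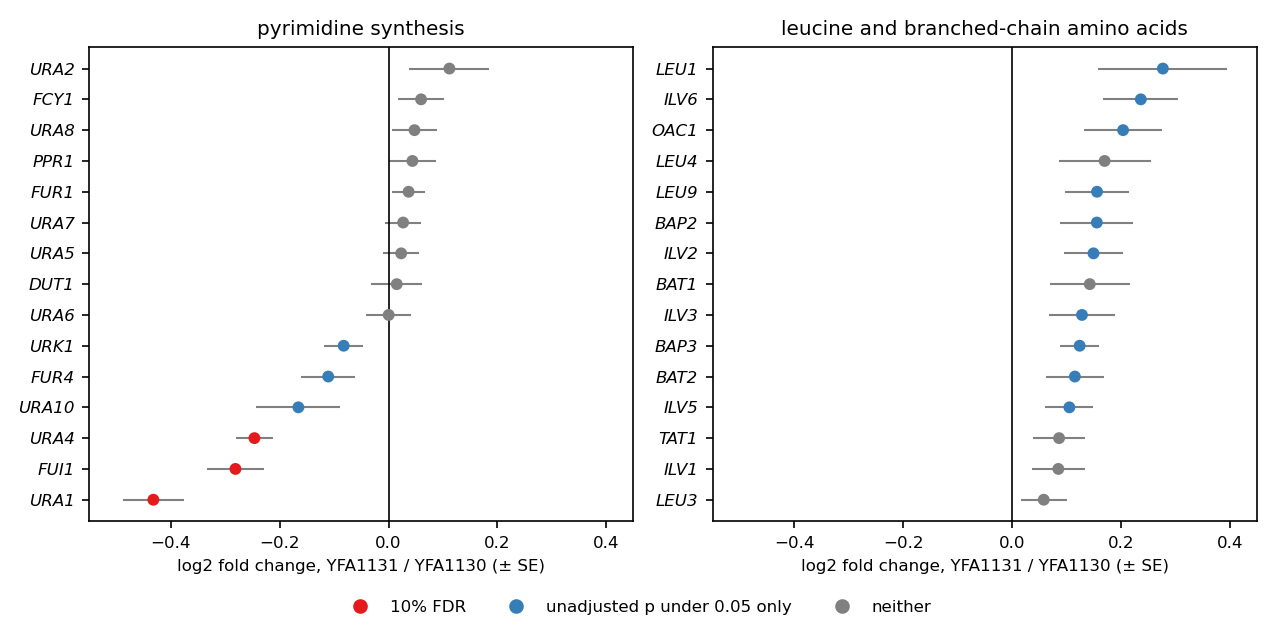
Log2 fold change of YFA1131 over YFA1130 (point) and its standard error (bar) for the members of the pyrimidine and the leucine lists. Colour marks genes past the 10% FDR, genes at an unadjusted p under 0.05, and the rest. A few pyrimidine genes were low and the rest lay near 0, whereas all 15 leucine genes lay a little above 0.

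Glycolysis lay slightly higher in YFA1131, with 9 of 22 genes higher, 1 lower and a median of 0.06. *ENO2*, enolase, was at 14956, 17532, 14105, 14186 and 15626 CPM in YFA1131 replicates 1 to 5 and at 14055, 14601, 14014, 12786 and 12796 CPM in YFA1130. The ranges overlapped, and the 2 highest libraries were both of harvest batch 3 and YFA1131. Its log2 fold change was 0.15 ± 0.04 (adjusted p = 0.194). The glyceraldehyde phosphate dehydrogenase *TDH3* lay higher by 0.12, the phosphofructokinase subunit *PFK2* by 0.18, pyruvate decarboxylase *PDC1* by 0.19 and pyruvate kinase *CDC19* by 0.11. The list level differed by 0.17 in harvest batch 3, by -0.10 in batch 2 and by -0.03 in batch 1. The list median stayed above 0 in 24 of 24 alternatives, from 0.045 to 0.19, but the count of members did not hold. It was 1 higher without harvest batch 1, 4 without YFA1131 replicate 1 or YFA1130 replicate 5, 5 without YFA1131 replicate 5, and 0 with the 10 wildtype libraries and strain only. Without the 2 libraries against their labels 8 lay higher and 1 lower. At the FDR *ENO2* then rose (0.17, adjusted p = 0.0504) and *TDH1* of the same list fell (-0.41, adjusted p = 0.0386).

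Some genes of the glucose response also lay higher. In the list of glucose sensing, 4 of 21 genes lay higher and 0 lower (median 0.07), and 0 lay higher without YFA1130 replicate 5. *MIG3* and *MIG2*, which encode repressors induced by glucose, lay higher by 0.23 and 0.21. *HXT1*, for the low-affinity glucose transporter that the Rgt2 sensor induces, was at 1658, 1215, 1634, 1241 and 1407 CPM in YFA1131 and at 1024, 1347, 1240, 1016 and 1230 CPM in YFA1130. The 2 YFA1131 libraries of harvest batch 1 were highest, and the ranges overlapped. Its difference on the log2 scale was 0.24 ± 0.07 (adjusted p = 0.208), and 0.26 (adjusted p = 0.0729) without the libraries against their labels. Its counts were not whole in 24 of 25 libraries. In *RGT2(V539I)* against the other edited strains *HXT1* fell (-0.36, adjusted p = 0.00308) and *MIG3* had a log2 fold change of -0.61. Both signs were opposite to the difference between the wild types. The study reports, from allele exchanges and from RNA sequencing, that the RM allele of this variant lowers *HXT1* expression. The 9 hexose transporter genes together had a median of -0.12, with 7 of 9 below 0 and 1 of 9, *HXT1*, at the lenient threshold.

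Chaperones lay higher as well, 9 of 28 heat shock genes against 0 lower, with a median of 0.08. *STI1*, which links Hsp70 to Hsp90, lay higher by 0.15 (adjusted p = 0.127), the coactivator gene *MBF1* by 0.22 (0.141) and the Hsp70 gene *SSA2* by 0.25 (0.208). *SSA2* shares reads with *SSA1*. The list level differed by 0.09, -0.06 and 0.06 in harvest batches 1, 2 and 3, and its median stayed above 0 in 24 of 24 alternatives. The count was 7 higher and 1 lower without the 2 libraries against their labels, 5 higher without harvest batch 1, 4 without YFA1130 replicate 1 or 5 and 5 without YFA1131 replicate 3.

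The mitochondrial lists did not move as one. Genes for mitochondrial ribosomal proteins and the respiratory chain lay lower in YFA1131. Of the citric acid cycle 3 of 17 genes lay higher and 0 lower (median 0.018), and of mitochondrial import and assembly 4 of 37 lay lower and 0 higher (10.8%, against 9.71% of all genes). Of 68 genes for mitochondrial ribosomal proteins, 19 lay lower and 0 higher, 62 had a log2 fold change below 0 and the median was -0.095. The log2 fold changes of the 68 spanned -0.18 to 0.06. *MRP51* of the small subunit was at 84.8, 78.5, 86.6, 91.8 and 79.6 CPM in YFA1131 and at 90.8, 90.7, 94.6, 91.9 and 96.2 CPM in YFA1130. Replicate 4 of YFA1131, of harvest batch 2, reached into the YFA1130 range, and the other 4 lay below it. Its log2 fold change was -0.15 ± 0.03 (adjusted p = 0.115). *MRPL35* of the large subunit did not overlap, at 49.8 to 53.1 CPM in YFA1131 and at 55.5 to 61.8 CPM in YFA1130 (-0.14, adjusted p = 0.265), and *RSM23* of the small subunit also had -0.14. The list level differed by -0.09, 0.0046 and -0.14 in harvest batches 1, 2 and 3. Its median stayed below 0 in 24 of 24 alternatives, from -0.12 to -0.03. The count of lower members ranged more widely. It was 23 without the 2 libraries against their labels, 7 without YFA1131 replicate 1, 8 without YFA1130 replicate 5 and 10 without YFA1130 replicate 3. Without harvest batch 1 it was 2, and 28 of the 68 then had a log2 fold change above 0.

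Of 38 nuclear genes of the respiratory chain, 10 lay lower and 0 higher, 31 were below 0 and the median was -0.09. *COX7*, a small subunit of cytochrome c oxidase, was at 8.39, 7.78, 7.63, 8.53 and 7.60 CPM in YFA1131 and at 8.92, 9.86, 10.9, 11.4 and 10.3 CPM in YFA1130. All YFA1131 libraries were below all YFA1130 libraries, and the fit put *COX7* at -0.34 ± 0.10 on the log2 scale (adjusted p = 0.252). *COX4* (-0.20) and *COX12* (-0.25) of the same enzyme and *CYC1*, cytochrome c (-0.33), lay lower too. Without the libraries against their labels 26 of the 38 lay lower and 0 higher, and 4 fell at the FDR, among them *COX4* (-0.29, adjusted p = 0.0221), *COX7* (-0.46, adjusted p = 0.0336) and *COX12* (-0.36, adjusted p = 0.0814). Without harvest batch 1, however, 3 lay lower and 1 higher and the list median was 0.03, and 3 lay lower without YFA1131 replicate 3. The list level differed by -0.14, -0.01 and -0.17 in harvest batches 1, 2 and 3. *HAP4*, which encodes the activating subunit of the complex that turns on respiration genes, had a log2 fold change of 0.36 (adjusted p = 0.264), a sign opposite to the list median. It ranged widely, from 116 to 317 CPM in YFA1131 and from 85.8 to 244 in YFA1130. In *RGT2(V539I)* against the other edited strains the respiratory list stood the other way, with 30 of 38 genes higher at an unadjusted p under 0.05, 0 lower and a median of 0.17, and the mitochondrial ribosomal list had 9 higher, 0 lower and a median of 0.04. Without the libraries against their labels the counts there were 22 higher and 0 lower (median 0.14) and 6 higher and 0 lower (median 0.03). Both list medians thus had opposite signs in YFA1131 and in the other strain from the same deletion parent, which carries the *RGT2* variant as well.

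**Figure D4:**
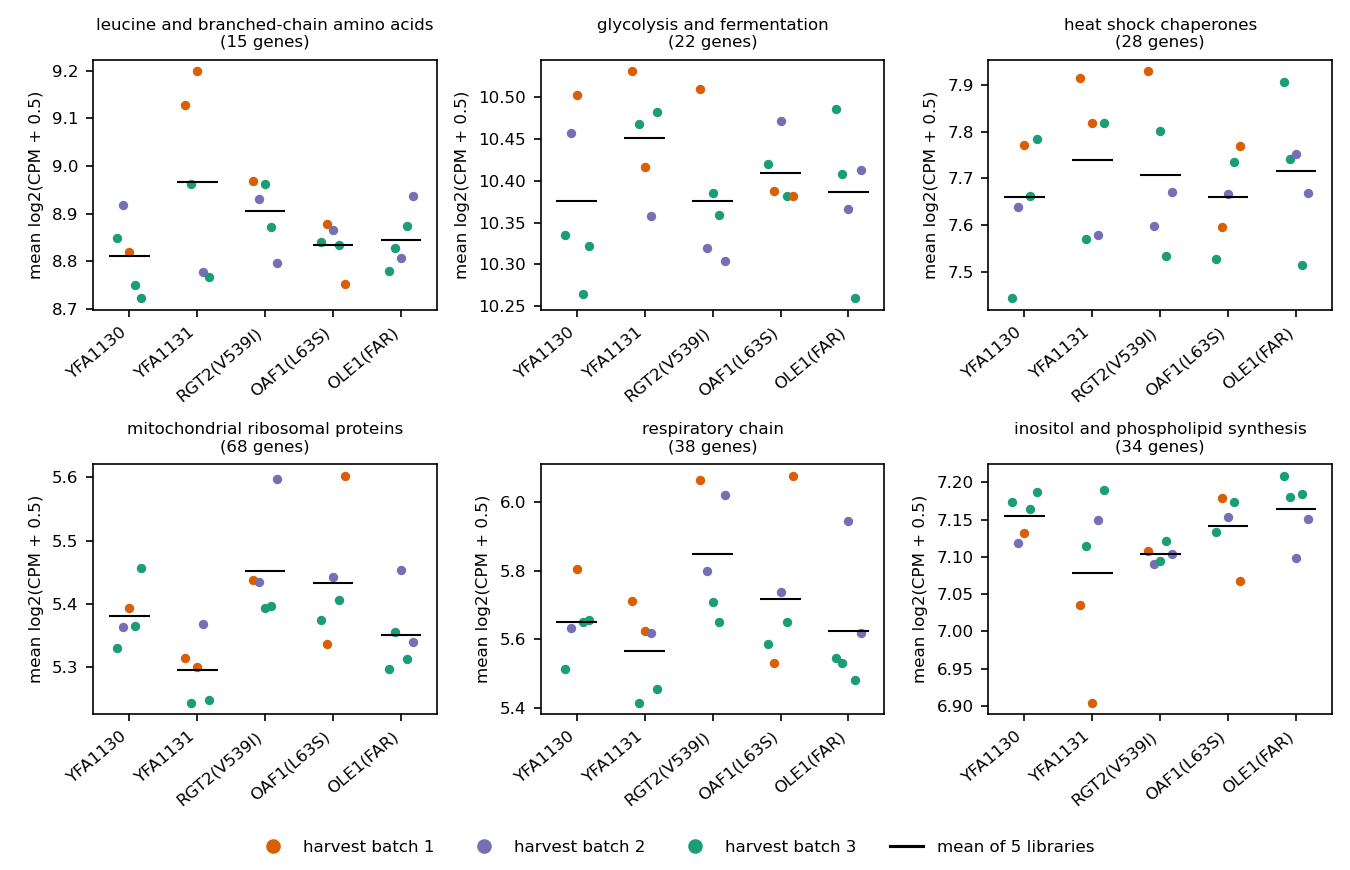
Level of 6 lists in each library, as the mean of log2(CPM + 0.5) over the members, by strain and with the harvest batch in colour. The leucine list was highest in the 2 YFA1131 libraries of harvest batch 1, at 9.13 and 9.20, against 8.82 in the YFA1130 library of that batch.

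In the inositol and phospholipid list 8 of 34 genes lay lower and 1 higher (median -0.04), and this count rested on single libraries. Without YFA1130 replicate 3 it was 0 lower and 2 higher, without YFA1131 replicate 1 or 2 it was 3 lower and 1 higher, without YFA1131 replicate 3 or YFA1130 replicate 5 it was 5 lower and 1 higher, and without the 2 libraries against their labels 11 lower and 2 higher. Without harvest batch 1 it was 1 lower and 0 higher with a median of -0.00041, and within harvest batch 3 the median was 0.0066. *CHO1*, phosphatidylserine synthase, was at 485, 543, 426, 682 and 633 CPM in YFA1131 and at 624, 579, 571, 707 and 725 CPM in YFA1130. The 2 batch 1 libraries and replicate 2 of YFA1131 lay below the YFA1130 range and the other 2 within it (log2 fold change -0.19 ± 0.06, adjusted p = 0.334). *CDS1*, which makes CDP-diacylglycerol, the substrate of Cho1, had a log2 fold change of -0.14, and *PSD1*, which turns phosphatidylserine into phosphatidylethanolamine, had -0.15. These 3 consecutive steps fell at the FDR without the libraries against their labels (-0.26, -0.17 and -0.20, with adjusted p of 0.039, 0.0814 and 0.094) and stood between 0.0081 and 0.06 without harvest batch 1.

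Ergosterol genes lay on both sides, 6 of 33 higher and 4 lower with a median of -0.01. *ECM22*, which encodes a sterol-responsive activator, was at 54.0, 75.0, 50.5, 63.8 and 76.9 CPM in YFA1131 and at 63.03, 58.3, 40.01, 59.96 and 61.6 CPM in YFA1130. Harvest batch 1 was low in both strains, and within each batch YFA1131 was higher, by 0.39, 0.13 and 0.30 on the log2 scale. In the fit it lay higher by 0.22 ± 0.05 (adjusted p = 0.106), and 0.29 (adjusted p = 0.0133) without the libraries against their labels. *ERG3*, the C-5 sterol desaturase, lay higher by 0.16 (adjusted p = 0.107) and *ERG4*, which acts last in the pathway, by 0.15, while *CYB5* was lower, as given above.

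Among mating genes (pheromone response and haploid genes) 6 of 40 lay lower and 2 higher, with a median of -0.04. The median kept its sign in 22 of 24 alternatives and was 0.07 without harvest batch 1, where 3 lay higher and 0 lower. Within harvest batches 1, 2 and 3 the list level differed by -0.26, 0.04 and -0.04, and the YFA1130 library of batch 1 had the highest level of the 10, at 5.55 against 5.33 to 5.37 in the other YFA1130 libraries. The count was 1 lower without YFA1131 replicate 1 or 3, 2 without YFA1130 replicate 1, 3 or 5, and 3 without YFA1131 replicate 2. *FUS2*, a cell fusion protein, was at 5.47, 5.12, 4.92, 6.82 and 5.64 CPM in YFA1131 and at 8.75, 7.29, 10.0, 8.58 and 7.13 CPM in YFA1130. The groups did not overlap, and the log2 fold change was -0.56 ± 0.15 (adjusted p = 0.197). It was -0.76 (adjusted p = 0.00571) without the libraries against their labels. The agglutinin gene *AGA1* had -0.26, with a log2 ratio of -0.97 in harvest batch 1 against 0.03 and 0.06 in the later batches. Of the cell wall genes 7 of 43 lay higher and 2 lower (median 0.06), with 1 higher without harvest batch 1, 0 higher without YFA1131 replicate 1, 2 without YFA1131 replicate 2 or YFA1130 replicate 5 and 3 without YFA1131 replicate 3 or YFA1130 replicate 1 or 3. *THI7*, the thiamine transporter, had a log2 fold change of 0.35 (adjusted p = 0.127) in a thiamine and pyridoxine list with 4 of 25 higher and 1 lower. *ZPS1*, a zinc-regulated cell wall protein, had a log2 fold change of 1.10 ± 0.34 (adjusted p = 0.294) and ranged from 149 to 435 CPM in YFA1131 and from 26.2 to 293 in YFA1130.

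The chromosomes differed little among themselves. The medians of the 16 chromosomes lay between -0.0053 and 0.017, and 6.36% to 12.7% of their genes passed the lenient threshold. Within 25 kb of a chromosome end 38 of 209 genes passed (18.2%), 23 higher and 15 lower, and *YIR042C* and *IMD2* were among them. Telomeric helicase genes, near-identical copies given without a fold, also count in that list. Of the 18 tested, 6 lay higher and 4 lower. Among the COS genes 1 of 10 lay higher and 1 lower.

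Much of the growth machinery was quiet in this comparison. Of the genes for cytosolic ribosomal proteins, 3 of 78 of the large subunit and 2 of 57 of the small subunit passed the lenient threshold, as did 4 of 104 ribosome biogenesis genes, 0 of 33 proteasome genes and 0 of 10 core histone genes. These shares were all below the 9.71% of all genes.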

How the data were processed

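RNA of 25 cultures, 5 of each strain, had been enriched for poly-A and made into directional libraries. The authors trimmed reads with Trimmomatic 0.38 after bcl2fastq 2.20.0.422 and pseudoaligned them with kallisto to the Ensembl transcriptome (sacCer3), and deposited estimated counts per gene for 6713 genes. Of these values 6.46% were not whole, which marks reads shared between similar genes, and all were rounded. Batches were taken from the study's sample sheet, and replicates were numbered in accession order within a strain.

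Genes with a count above 0 in every library were fitted in 1 model of all 25 libraries with edgeR 4.0.16 (quasi-likelihood, TMM scaling) in R 4.3.3, with strain, harvest batch (3), isolation batch (5), preparation batch (2) and 2 surrogate variables from sva 3.50.0 as the study's methods list. This left 11 residual degrees of freedom. Log2 fold changes are YFA1131 over YFA1130, tests are two-sided and p-values were adjusted by Benjamini-Hochberg over all genes tested. The labels describe RNA isolation in batches of 1 sample per strain, and the sheet of the study's samples gives the batch of each. The deviations of each such pair of wild types from their strain means correlated at -0.43, -0.15, 0.24, -0.15 and 0.10, and the batch was kept because the study's methods include it. Replicates of a wild type differed by more than sampling noise in all 20 pairs (chi-square per degree of freedom 7.33 to 53.3). The fit was tested on simulated counts that held no batch effects, so that test does not show how it handles the harvests of these data.

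Members and lists were chosen with earlier results of these data known. Genes were named if they passed the 10% FDR, if they were among the 10 largest non-overlapping differences in each direction at an unadjusted p under 0.05 and a mean of at least 10 CPM, or from the 6 smallest p of a described list. *BAT1*, *PPR1*, *FAA4* and *RGT2* were named for the pathway or the engineering, and *AGA1* and *ERG4* for their list. Lists were described if at least 5 members were tested and their share at the lenient threshold was at least 2 times that of all genes. The lists of the engineered loci, their neighbours, the hexose transporters and glucose sensing were described whatever their share. Some other lists below it are given for comparison. DESeq2 1.42.0, other scalings, filters, covariates and subsets of libraries were alternatives, and the contrast among the edited strains without the 2 libraries against their labels was added after seeing the data. Of the genes listed, 6025 matched RefSeq R64, from which coordinates and promoters came.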

Additional observations from a re-analysis of the deposited data

Results flagged for a closer look

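In 7 of the 184 groups of 5 libraries examined, 1 library lay farther from the rest than Dixon's 95% limit for 5 values (0.71) allows, and chance alone gives this in about 1 of 20 groups. YFA1131 replicate 2 had 0.618 CPM of *YIR042C* where the other 4 had 0.284 to 0.365. YFA1131 replicate 3, of harvest batch 1, had 99.5 CPM of *RIB4* against 113 to 117 in the other 4, and 10.4 CPM of *ZIP1* against 12.4 to 12.7. The other 4 cases were all YFA1130 replicate 3, the single YFA1130 library of harvest batch 1. It had 1337 CPM of *HIS4* against 786 to 941 and 40.01 CPM of *ECM22* against 58.3 to 63.03. Its pyrimidine list level was 6.95 against 7.14 to 7.22, and its pheromone list level was 5.55 against 5.33 to 5.37. Harvest batch and library cannot be told apart there, since that batch holds 1 library of this strain.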

How the results depend on the processing

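The number of genes at the 10% FDR was 7, and 13 with DESeq2's size factors, 36 with DESeq2's Wald test, 4 without surrogate variables, 12 with the preparation batch in 4 levels and 84 without the 2 libraries that went against their labels. Without the replicate block of isolation batches it was 12, with 6 of the 7 among them and *IMD2* not. It was 1 with strain as the only term, 1 with the 10 wildtype libraries and harvest batch, and by edgeR 0 with the 10 wildtype libraries and no covariate, 0 without harvest batch 1 and 0 within harvest batch 3 (400 genes at an unadjusted p under 0.05). Leaving out 1 wildtype library gave 4 to 40. The number at an unadjusted p under 0.05 was 555, and 338 with DESeq2, 187 with strain only, 198 and 125 with the 10 wildtype libraries with and without harvest batch, and 221 without harvest batch 1. Leaving out 1 library gave 296 to 647, and the highest counts came without YFA1130 replicate 4 (40), replicate 2 (34) or YFA1131 replicate 5 (26) and replicate 4 (15). The causes were not tested.

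Signs turned without harvest batch 1 for *OAC1* (-0.032), *ILV2* (-0.035), *LEU9* (-0.060), *ILV5* (-0.013), *LEU1* (-0.21), *BAT1* (-0.12), *ASN1* (-0.0053), *HIS4* (-0.076), *SAM1* (-0.024), *MIG3* (-0.041), *HAP4* (-0.067), *CHO1* (0.010), *CDS1* (0.0081), *PSD1* (0.055), *AGA1* (0.14, and 0.071 within harvest batch 3) and *FAA4* (-0.13). *FAA4* also turned with at least 10 counts per library (-0.0092), without the replicate block (-0.034) and in the range of -0.063 to 0.059 with 1 library left out, and *RGT2* with 4 preparation levels (-0.033). With 5 libraries a strain and 11 residual degrees of freedom the smallest log2 fold change called was 0.17 in size. Of the genes named, 23 passed the FDR without the 2 libraries that went against their labels and not in the fit of all 25, each in at most 7 of 24 alternatives.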
